A study of Mus musculus with 24 samples.

Results

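The 9 names Ifi202b, Ifi203, Ifi204, Ifi205, Ifi207, Mnda, Ifi27, Ifi35 and Ly6e were followed through mouse fibroblasts kept for 24 h under metal powder. They were picked by symbol and older alias, because Ifi207 was higher and Ifi27 lower with manganese and because Ly6e differed with the alloy. The names resolved to 10 mouse genes on 17 array probes, and 8 of the 10 are among the 13151 genes that gave a usable signal. The extra gene came from 1 probe that the array calls IFI27 and the annotation assigns to Ifi27l2a, whose older alias is Ifi27, whereas Ifi27 itself lies on 2 probes named D12ERTD647E. Ifi207 carries the array name AI607873, and Mnda is an alias of Ifi211 in RefSeq. The Ifi203 probe was not listed in the annotation and keeps the array's own symbol. Those 8 had a probe brighter than background on 6 or more of the 24 arrays and so passed the filter on dim probes. Ifi204 and Ifi211 (Mnda) were below background on every array in every probe.

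The cells were BALB/3T3 clone A31, an established embryonic fibroblast line of BALB/c origin, grown in serum-containing medium. Powder lay in a culture insert above the monolayer: Fe-35Mn alloy at 5 mg/ml, pure manganese at 0.5 mg/ml, pure iron at 3,25 mg/ml, or no powder in the control. Each of these 4 groups had 6 arrays that the labels call technical replicates, so every p-value measures the spread between such arrays and not between separate experiments. The amount of powder differed between the 3 powder groups.

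The array medians lay between 61.6 and 75.3 intensity units, and 36.4% to 42.6% of probes were above background, fewest on alloy replicate 4. The alloy arrays stood apart in spread, with a median gene SD of 0.148 on the log2 scale, against 0.0834 in manganese, 0.0766 in iron and 0.0761 in control arrays. Of 10 fibroblast markers, 8 were above background on all arrays in every group, while the probe of Col1a1, a main fibrillar collagen chain, was below background throughout. Of the 8 that were tested, 7 fell with the alloy and 8 with manganese against control, where 26.3% and 32% of all genes were called lower. The summed fibroblast marker intensity was 16938 to 28622 on alloy, 22952 to 25654 on manganese, 35262 to 42268 on iron and 35342 to 37337 on control arrays. Among leukocyte markers, Ptprc, Adgre1, Itgam, Tyrobp and Fcer1g were below background on all arrays of every group, and the summed level of the list was 1080 to 1341 on alloy, 1179 to 1279 on manganese, 1104 to 1166 on iron and 1062 to 1125 on control arrays. Cd14 was above background on all 24 arrays, at mean levels of 9.19 on alloy, 9.26 on manganese, 8.94 on iron and 8.87 on control arrays. Lyz2 was above background on no alloy or manganese array and on all iron and control arrays. Aif1 was above background on 2 alloy, 5 manganese, 6 iron and 1 control arrays, and Csf1r on 1 alloy array only. In bulk RNA, fewer cells of a type and less RNA per cell cannot be told apart, and what part the marker shift has in the results was not tested.

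As background, the IFI200 genes lie in a cluster on mouse chromosome 1 and encode PYHIN proteins, most of which join a pyrin domain to DNA-binding HIN domains. Several act as sensors or regulators of the response to DNA in the cytosol and nucleus. Type I interferon acts through its receptor and JAK kinases, and the signal reaches the interferon-stimulated response element in promoters of genes such as these. Gamma-activated sites are promoter elements known from the response to interferon gamma. Ifi27, Ifi35 and Ly6e are interferon-stimulated genes outside that cluster.

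RefSeq (GRCm38.p6) gave promoter windows, 250 bases before to 50 after a start, for 6 of the 10 genes, in 7 windows. The core of the interferon-stimulated response element, searched as GAAANNGAAA on both strands (TTTCNNTTTC on the other), was found in 4 of the 7 windows, against 3.44% of 32851 promoters of that length. The gamma-activated site was searched as TTCNNNGAA, which reads the same on both strands. It was found in 2 of the 7, against 8.3% of all promoters, and no window held both motifs. The 7 windows are not independent. Both Ifi203 windows overlap each other, and those of Ifi205, Ifi207 and Ifi211 share long stretches of sequence. These counts are therefore not read as an excess over all promoters. A match is a description of letters, not evidence of binding. Whether these cells, of BALB/c origin, carry the same letters as the reference genome was not tested. The windows shown are those of Ifi207, the gene with the largest manganese difference, Ifi203, whose core has the same letters, Ifi211, which holds a core but stayed below background, and Ifi202b, which was higher without one. Each reads 5′ to 3′ along the gene, with the response element core or, in Ifi202b, the gamma-activated site in capitals.

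Ifi207, chr1:173741760-173742059, minus strand: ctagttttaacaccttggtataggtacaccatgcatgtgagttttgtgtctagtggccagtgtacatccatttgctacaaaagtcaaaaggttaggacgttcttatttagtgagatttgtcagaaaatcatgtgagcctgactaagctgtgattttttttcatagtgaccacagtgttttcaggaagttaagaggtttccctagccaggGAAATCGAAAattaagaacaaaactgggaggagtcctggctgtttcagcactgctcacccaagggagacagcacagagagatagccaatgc

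Ifi203, chr1:173942443-173942742, minus strand: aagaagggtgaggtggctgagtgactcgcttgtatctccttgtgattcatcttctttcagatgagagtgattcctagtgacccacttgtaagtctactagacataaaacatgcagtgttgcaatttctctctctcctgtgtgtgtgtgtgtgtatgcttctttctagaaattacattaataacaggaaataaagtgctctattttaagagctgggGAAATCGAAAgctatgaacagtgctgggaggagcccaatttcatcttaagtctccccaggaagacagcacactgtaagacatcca

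Ifi211, chr1:173912997-173913296, minus strand: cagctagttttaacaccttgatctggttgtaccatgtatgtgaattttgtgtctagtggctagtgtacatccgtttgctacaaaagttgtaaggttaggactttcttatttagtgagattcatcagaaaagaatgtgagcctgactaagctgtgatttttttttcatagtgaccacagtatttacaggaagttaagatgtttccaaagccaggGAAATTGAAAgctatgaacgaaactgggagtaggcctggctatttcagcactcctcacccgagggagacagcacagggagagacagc

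Ifi202b, chr1:173982795-173983094, minus strand: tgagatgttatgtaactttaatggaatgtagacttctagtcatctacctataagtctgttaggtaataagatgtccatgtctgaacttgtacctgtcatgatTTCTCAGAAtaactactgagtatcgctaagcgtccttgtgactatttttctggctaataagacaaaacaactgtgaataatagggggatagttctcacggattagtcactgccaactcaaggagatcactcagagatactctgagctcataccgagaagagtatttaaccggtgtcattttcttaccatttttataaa

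The core lay 41 to 32 bases before the start in Ifi207, 35 to 26 bases in Ifi203 and 37 to 28 bases in Ifi211. The second Ifi203 window, of a start farther upstream, had no match to either motif. Ifi205 had a core that began 134 bases before its start, and another after the start. The Ifi35 window held no core and a gamma-activated site after the start. Windows for Ifi27, Ifi27l2a, Ly6e and Ifi204 were not used here.

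Ifi207, a PYHIN protein of the nucleus, was the member with the widest range. Its level is the log2 of the background-corrected and quantile-normalised probe intensity, the scale of all levels and differences here unless another is named. On alloy arrays the lowest, median and highest values were 10.76, 11.67 and 13.03, and on manganese arrays 11.98, 12.21 and 12.42. On iron arrays they were 8.04, 8.34 and 8.54, and on control arrays 8.18, 8.24 and 8.35. Every alloy and manganese array lay above every iron and control array, and iron and control arrays overlapped. The alloy values fell on either side of the manganese range: replicate 3 was above it, replicates 2, 5 and 6 were below it. The difference of manganese against control was 3.94 (SE 0.058), 15.4-fold and the largest rise among all 13151 genes, a value that chose the gene and so carries no test.

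The comparison of alloy and iron arrays did not enter that choice. Ifi207 averaged 11.74 ± 0.91 with the alloy and 8.30 ± 0.21 with iron (SD, n = 6 each), a log2 difference of 3.44 (SE 0.325), 10.9-fold (limma, adjusted p = 1.26e-06). It ranked 8 from the top of all genes in that comparison and was 3.18 without alloy replicate 3. Iron and control arrays differed by 0.05 (95% interval -0.10 to 0.20), which was within their spread. The alloy minus manganese difference was -0.45 (SE 0.320), given without a test because the manganese arrays chose the gene. It was -1.01 with array weights and -1.24 without alloy replicates 1, 3 and 4. The SD of Ifi207 was 0.91 over the alloy arrays and 0.15 over the manganese arrays.

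**Figure D1:**
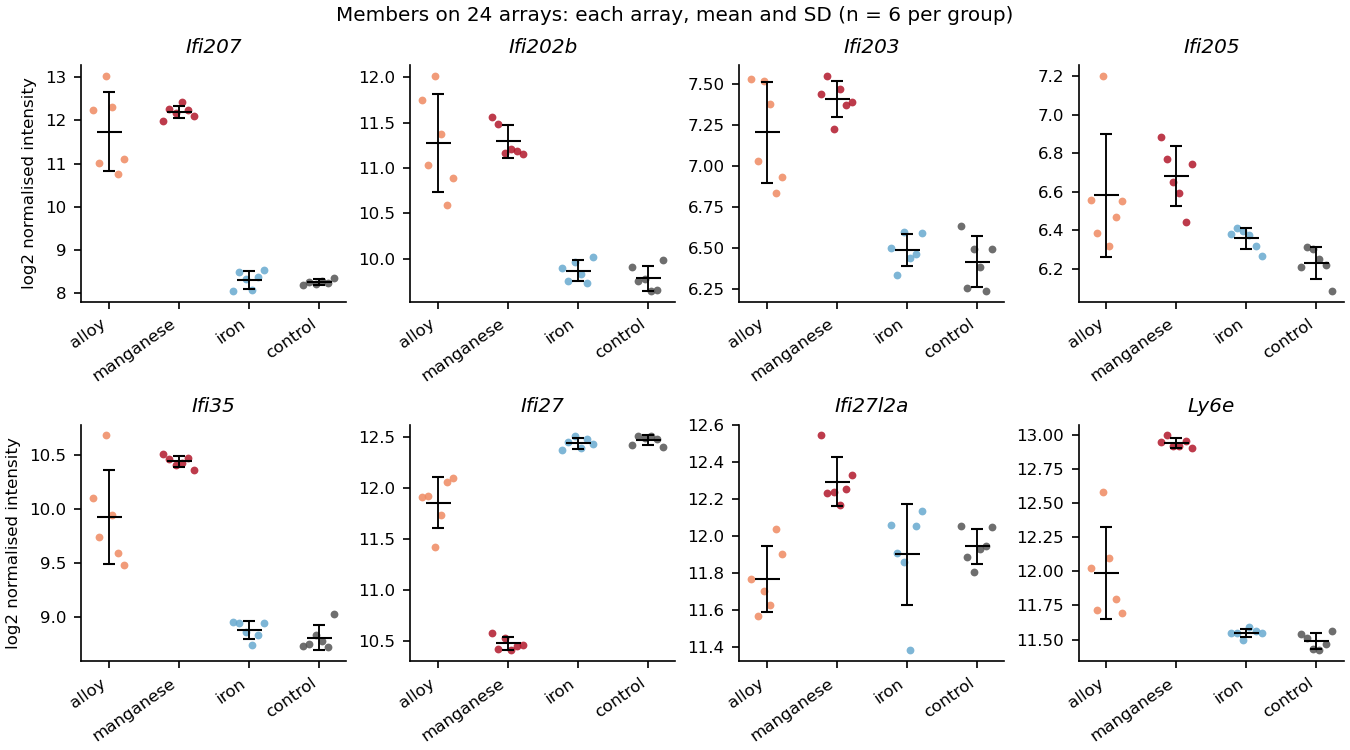
Log2 normalised intensity (y axis) of the 8 genes above the filter on each of the 24 arrays (points), with the mean and SD of each group of 6 (bars), by group (x axis: alloy, manganese, iron, control). In Ifi207, alloy arrays run from 10.76 to 13.03 and manganese arrays from 11.98 to 12.42, and Ifi27 runs the other way.

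Ifi202b encodes an unusual PYHIN protein that lacks the pyrin domain and in mice dampens the Aim2 inflammasome. Its brightest probe had a lowest, median and highest value of 10.59, 11.20 and 12.01 on alloy arrays and 11.15, 11.20 and 11.57 on manganese arrays. The corresponding values were 9.73, 9.86 and 10.02 on iron and 9.65, 9.76 and 9.99 on control arrays. The 12 alloy and manganese arrays were all above the 12 others. Against control, the gene rose by 1.49 with the alloy (SE 0.196, 2.80-fold, limma adjusted p = 2.53e-05) and by 1.51 with manganese (SE 0.075, 2.84-fold, adjusted p = 6.96e-13). Alloy minus manganese was -0.02 (95% interval -0.45 to 0.41), so a difference of up to about that size in either direction is not excluded by these arrays.

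A second Ifi202b probe gave 1.41 for the alloy and 1.68 for manganese against control, both past the threshold, while a further probe was below background on all 24 arrays. Ifi202b has near-identical neighbours in the mouse genome, and whether their RNA adds to these probes was not tested. Ifi203, another PYHIN protein, had 6.83, 7.20 and 7.53 as lowest, median and highest on alloy arrays and 7.23, 7.42 and 7.55 on manganese arrays, all above background. Iron arrays gave 6.34, 6.48 and 6.60, with 4 of 6 above background, and control arrays 6.24, 6.44 and 6.64, with 3 of 6. Every alloy and manganese array was higher than any iron or control array, and the last 2 groups overlapped. The gene rose by 0.79 with the alloy (SE 0.125, adjusted p = 0.000127) and by 0.99 with manganese (SE 0.065, adjusted p = 5.21e-11) in limma.

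Ifi205, a further PYHIN gene of the cluster, was measured at the edge of detection. Its brightest probe was above background on 3 of 6 alloy and 5 of 6 manganese arrays and on none of the iron or control arrays, so it passed the filter only through groups in which it was higher. The measured values were 6.32, 6.51 and 7.20 on alloy, 6.45, 6.70 and 6.89 on manganese, 6.27, 6.38 and 6.41 on iron and 6.09, 6.24 and 6.31 on control arrays as lowest, median and highest. With the lowest signal above background as a floor for the dim group, Ifi205 was at least 1.085-fold higher with the alloy and at least 1.16-fold higher with manganese than in control cells. Because of how it passed the filter, no test is given for these bounds. Both other Ifi205 probes were below background on all but 1 array between them.

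Ifi204, the mouse PYHIN protein that senses DNA upstream of Sting1, and Ifi211 (Mnda) were below background on every array. Their 3 probes had means between 5.73 and 6.35 in all groups, which are not read as levels of the genes. In 18 exact permutation tests over 6 against 6 arrays (3 probes in 6 comparisons, two-sided), 7 had an unadjusted p under 0.05, beside 10.2% of the same tests over all 22343 probes below background on every array. The smallest, 0.002165, is the lowest that test can give: an Ifi204 probe averaged 5.89 in manganese and 5.73 in control cells, with no overlap. Among those 22343 probes, 0.976% showed groups without overlap in that comparison. The same Ifi204 probe had an exact p of 0.004329 for iron and 0.03247 for alloy against control, and 0.03463 for manganese against iron. On the second Ifi204 probe the exact p was 0.04545 for manganese, 0.01082 for alloy and 0.03463 for iron against control. Small values against control were thus found with each powder. No fold is given for these probes, and none of the Ifi211 tests had a p under 0.05.

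Ifi35, a leucine zipper protein that pairs with Nmi and is induced by interferon, followed the IFI200 genes. Its lowest, median and highest values were 9.48, 9.84 and 10.68 on alloy and 10.36, 10.44 and 10.51 on manganese arrays. Iron arrays gave 8.74, 8.90 and 8.95, and control arrays 8.72, 8.76 and 9.02. All alloy and manganese arrays were above all iron and control arrays, and 5 of 6 alloy arrays were below the manganese range. The gene rose by 1.12 with the alloy (SE 0.161, adjusted p = 5.42e-05) and by 1.64 with manganese (SE 0.050, adjusted p = 3.19e-16) against control in limma. Alloy minus manganese was -0.52 and missed the threshold (adjusted p = 0.0805), but passed it without alloy replicate 3 (-0.67, adjusted p = 0.000859). Control replicate 6 was high at 9.02, and without it the manganese difference was 1.68.

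Ifi27 encodes a small membrane protein linked to mitochondria and the nuclear envelope and is one of the genes most often listed in interferon signatures. Here it was lower with manganese. The main probe had 11.42, 11.92 and 12.10 as lowest, median and highest on alloy arrays and 10.41, 10.45 and 10.58 on manganese arrays. Iron arrays gave 12.38, 12.44 and 12.51, and control arrays 12.41, 12.49 and 12.52. The manganese arrays were lowest, the alloy arrays intermediate, and neither overlapped any other group. Manganese minus control was -1.997 (SE 0.041), which is 3.99-fold lower, place 11 from the bottom of all genes, and this value chose the gene.

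The arrays that choice did not use gave the same direction. Ifi27 averaged 11.86 ± 0.25 with the alloy and 12.44 ± 0.05 with iron (SD, n = 6 each), a difference of -0.58 (SE 0.095, 1.497-fold lower, limma adjusted p = 0.000162). It was -0.50 without alloy replicate 3, the alloy array with the lowest Ifi27 value. Iron minus control was -0.03 (adjusted p = 0.711). The second probe gave -2.01 for manganese against control, -0.61 for alloy against control and -0.64 for alloy against iron. Alloy minus manganese was 1.38 (SE 0.097) on the main probe and 1.40 on the second, given without a test because the manganese arrays chose the gene.

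Ifi27l2a, a relative of Ifi27 in the same gene family, did not share that pattern. Its lowest, median and highest values were 11.57, 11.73 and 12.04 on alloy, 12.17, 12.25 and 12.54 on manganese, 11.38, 11.98 and 12.14 on iron and 11.80, 11.94 and 12.05 on control arrays. The manganese arrays were above all other arrays, and the other groups overlapped each other. Manganese minus control was 0.35 (SE 0.058, 1.27-fold, limma adjusted p = 2.84e-05) and manganese minus iron 0.39 (adjusted p = 0.00139). Alloy minus manganese was -0.53 (adjusted p = 0.00585), and it missed the threshold with median scaling (-0.64, adjusted p = 0.1005) and with no normalisation (-0.67, adjusted p = 0.1678). In contrast, alloy minus control was -0.18 and missed the threshold (adjusted p = 0.0735). Without alloy replicate 5, alloy minus control passed at -0.23 (adjusted p = 0.0114), and without iron replicate 4 alloy minus iron passed at -0.24 (adjusted p = 0.0387), against -0.13 with it.

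Ly6e is a surface protein held by a lipid anchor, known to limit the entry of some viruses and to act as a receptor in placental cell fusion. Its main probe gave 11.70, 11.91 and 12.58 as lowest, median and highest on alloy and 12.90, 12.93 and 13.00 on manganese arrays. Iron arrays gave 11.50, 11.55 and 11.59, and control arrays 11.42, 11.49 and 11.56. All manganese arrays were above all alloy arrays, and all alloy arrays were above all iron and control arrays. The alloy values chose the gene and carry no test: alloy minus control was 0.50 (SE 0.123), alloy minus manganese -0.95 (SE 0.122) and alloy minus iron 0.44 (SE 0.122). Without alloy replicate 3 those differences were 0.38, -1.07 and 0.32.

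Ly6e was chosen because it differed with the alloy, with no comparison group named, so the manganese arrays may have entered that choice. Its manganese differences are therefore given without a test. On the main probe they were 1.45 against control (SE 0.038, 2.73-fold) and 1.39 against iron (SE 0.036). The second probe gave 1.60 and 1.42. Iron minus control was 0.06 on the main probe (limma adjusted p = 0.428) and 0.18 on the second (adjusted p = 0.0263 over all probes), so the probes disagree on that call.

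**Figure D2:**
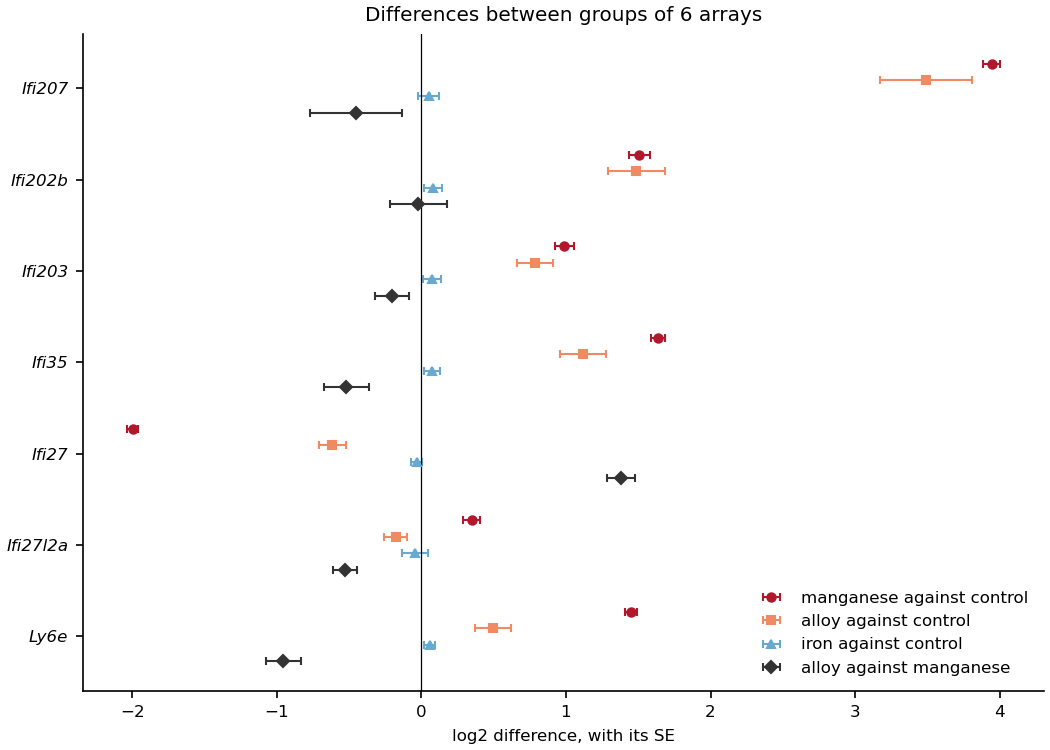
Log2 difference (x axis) with its SE for 7 genes (y axis; Ifi205 has only a bound and is not drawn) in 4 comparisons of 6 against 6 arrays, marked by colour and shape. Manganese and alloy differences from control lie on the same side of 0 in 6 genes and on opposite sides in Ifi27l2a (0.35 and -0.18), and iron differences lie near 0.

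Counted over the 8 tested members, 7 were called higher and 1 lower in manganese against control cells, where 62.1% of all genes were called, 30.1% higher and 32% lower. In alloy against control cells 6 were called higher and 1 lower, where 50.1% of all genes were called, 23.7% higher and 26.3% lower. The manganese arrays chose Ifi207 and Ifi27, the alloy arrays chose Ly6e, and Ifi205 is counted although it passed the filter only through those groups, so nothing is read from the count in any comparison that holds alloy or manganese arrays. In iron against control cells 0 of 8 members were called by limma, where 2.4% of all genes were called, 0.783% higher and 1.61% lower. At an unadjusted p under 0.05, 1 member was counted there, Ifi205, which was below background on all 12 of those arrays, and the count of calls was 0 under each of the other settings and array omissions tried. Alloy against manganese gave 1 member higher and 2 lower, where 4.27% of all genes were called, 1.97% higher and 2.3% lower. Alloy against iron gave 5 higher and 1 lower, where 50.1% of all genes were called, 23.6% higher and 26.5% lower. Manganese against iron gave 7 higher and 1 lower, where 61.5% of all genes were called, 29.8% higher and 31.7% lower. The median member difference was 1.22 in manganese against control and 0.64 in alloy against control cells, beside a median of -0.00 and -0.01 over all genes.

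Several members, though not all, varied together across the alloy arrays. Replicate 3 was the highest alloy array for Ifi207, Ifi202b, Ifi205, Ifi35 and Ly6e and the lowest for Ifi27, and replicate 1 was the highest for Ifi203. Across the 6 alloy arrays Ifi207 correlated with Ly6e at r = 0.93, with Ifi35 at 0.92 and with Ifi27 at -0.89, while Ifi27l2a correlated with Ifi207 at -0.47. Ifi205 correlated with Ifi207 at 0.62, with Ifi203 at 0.46 and with Ifi35 at 0.79. These coefficients describe arrays of one group that share normalisation, and carry no test. The alloy range was 2.27 for Ifi207, 4.82-fold between replicates 3 and 5, but 0.68 for Ifi27 and 0.89 for Ly6e.

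Of 62 listed interferon-stimulated genes outside the members, 48 were tested. In manganese against control cells 47 rose and 1 fell, with a median of 1.59, beside 62.1% of all genes called and an all-gene median of -0.00. Oasl1, Trim30a and Zbp1 among them were below background on all iron and control arrays, so they passed the filter only through the groups in which they were higher. Rsad2, which encodes viperin, rose by 3.89, Oas2 by 3.37, Ifit3 by 3.32 and Usp18, a brake on the interferon receptor, by 3.24. Irf1 fell by 0.35. In alloy against control cells 38 rose and none fell, with a median of 1.13, beside 50.1% of all genes called. Usp18 rose by 2.69 and Isg15, a ubiquitin-like protein, by 1.98. In iron against control cells 1 gene, Dtx3l, was called, at -0.18 (limma adjusted p = 0.0414), beside 2.4% of all genes called.

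Alloy against manganese cells had 10 of the 48 genes lower and none higher, beside 2.3% of all genes called lower and 1.97% higher. The list median was -0.42, beside -0.01 over all genes. Oas2 fell by 1.56 and Eif2ak2, a kinase that senses double-stranded RNA, by 0.61. That count rests on single arrays: it was 29 without alloy replicate 3, 4 without alloy replicate 2 or any of manganese replicates 2, 3, 4 and 5, and 3 without manganese replicate 6. Of the members in that comparison, Ly6e and Ifi27l2a were lower, while Ifi27 was higher.

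The mean of the 48 genes above the control mean was 0.73, 0.96 and 2.23 (lowest, median, highest) on alloy arrays, 1.60, 1.66 and 1.71 on manganese arrays, -0.17, 0.00 and 0.05 on iron arrays and -0.09, 0.00 and 0.09 on control arrays. In the mean of this list, though not in each of its genes, alloy replicate 3 was therefore above every manganese array. Oas2 and Eif2ak2 of the list were lower on every alloy array than on any manganese array. On alloy replicate 3 Ifi207 was also above the manganese range. Ly6e, at 12.58, stayed below the lowest manganese array (12.90), as Oas2 and Eif2ak2 did, and Ifi27, at 11.42, stayed above the highest (10.58).

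**Figure D3:**
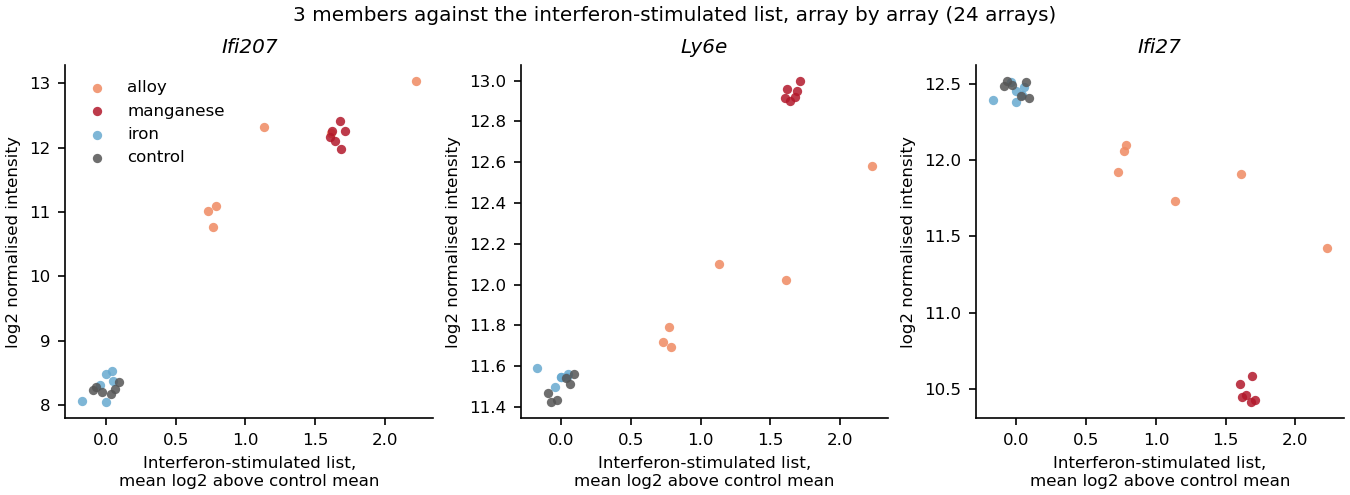
Log2 normalised intensity of Ifi207, Ly6e and Ifi27 (y axes) against the mean log2 of 48 interferon-stimulated genes above the control mean (x axes), 1 point for each of 24 arrays coloured by group. At the highest list mean, 2.23 on alloy replicate 3, Ifi207 lies above the manganese arrays, whereas Ly6e (12.58) and Ifi27 (11.42) lie between manganese and control arrays.

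Of 8 PYHIN genes outside the members, 3 had a probe that passed the filter. Mndal, a neighbour of Mnda in the cluster, rose by 1.14 with the alloy (adjusted p = 0.000116) and by 1.499 with manganese (adjusted p = 1.78e-15) against control in limma. Ifi214 was above background on 3 of 6 alloy, 6 of 6 manganese and no iron or control arrays, so it has a bound and no test. It was at least 1.39-fold higher with the alloy and at least 1.72-fold higher with manganese than in control cells. Ifi213 went against them in the alloy, where it fell by 0.30 (adjusted p = 0.00575), and rose by 0.10 with manganese (adjusted p = 0.0397). Neither Mndal nor Ifi213 was called by limma in iron against control cells, where 2.4% of all genes were called. The IFI200 genes in these fibroblasts ranged from below background (Ifi204 and Ifi211) to a 15.4-fold difference (Ifi207).

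Of 13 Ly6 and related genes, 2 were tested. Ly6c1, a surface antigen of the same family, fell by 0.62 with the alloy (adjusted p = 0.00107) but rose by 0.33 with manganese (adjusted p = 4.19e-05) against control. Lynx1, which modulates nicotinic acetylcholine receptors, fell by 0.66 with the alloy and by 0.48 with manganese. Neither had the pattern of Ly6e.

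Upstream of the members, Ifnb1, the type I interferon beta gene, was the only interferon gene of 5 with a usable probe. It was above background on 2 of 6 alloy, 6 of 6 manganese and no iron or control arrays, and so passed the filter only through groups in which it was higher. Its mean level was 6.85 on alloy and 6.76 on manganese arrays, which is at least 1.31-fold and at least 1.23-fold higher than in control cells, with no test given. Of 14 receptor and signalling genes, 12 were tested, of which 3 also stand in the interferon-stimulated list (Irf7, Irf9 and Stat2). With the alloy 4 rose and 3 fell, and with manganese 5 rose and 3 fell, with medians of 0.04 and 0.11 beside an all-gene median of -0.01 and -0.00. Over all genes, 50.1% were called with the alloy and 62.1% with manganese, so nothing is read from these counts. Irf7, which amplifies interferon transcription, rose by 1.26 with the alloy and 2.24 with manganese, and Stat2 by 0.97 and 1.29. The receptor chain gene Ifnar2 fell by 0.20 with the alloy and by 0.30 with manganese, and Socs3, an inhibitor of JAK signalling, fell by 0.90 and 0.36.

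Of 8 sensor genes, 6 were tested, and 5 rose and 1 fell with the alloy (median 0.54) and likewise with manganese (median 0.72). Over all genes, 50.1% were called with the alloy, 23.7% higher and 26.3% lower, with a median of -0.01. With manganese 62.1% of all genes were called, 30.1% higher and 32% lower, with a median of -0.00. Cgas, the cytosolic DNA sensor, rose by 1.22 with the alloy and by 1.08 with manganese, and Dhx58, an RNA sensor of the Rigi family that is also in the interferon-stimulated list, by 1.54 and 2.38. Sting1, the adaptor downstream of Cgas, was the gene that fell, by 0.39 with the alloy and 0.23 with manganese. None of the tested sensors was called in iron against control cells, where 2.4% of all genes were called.

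**Figure D4:**
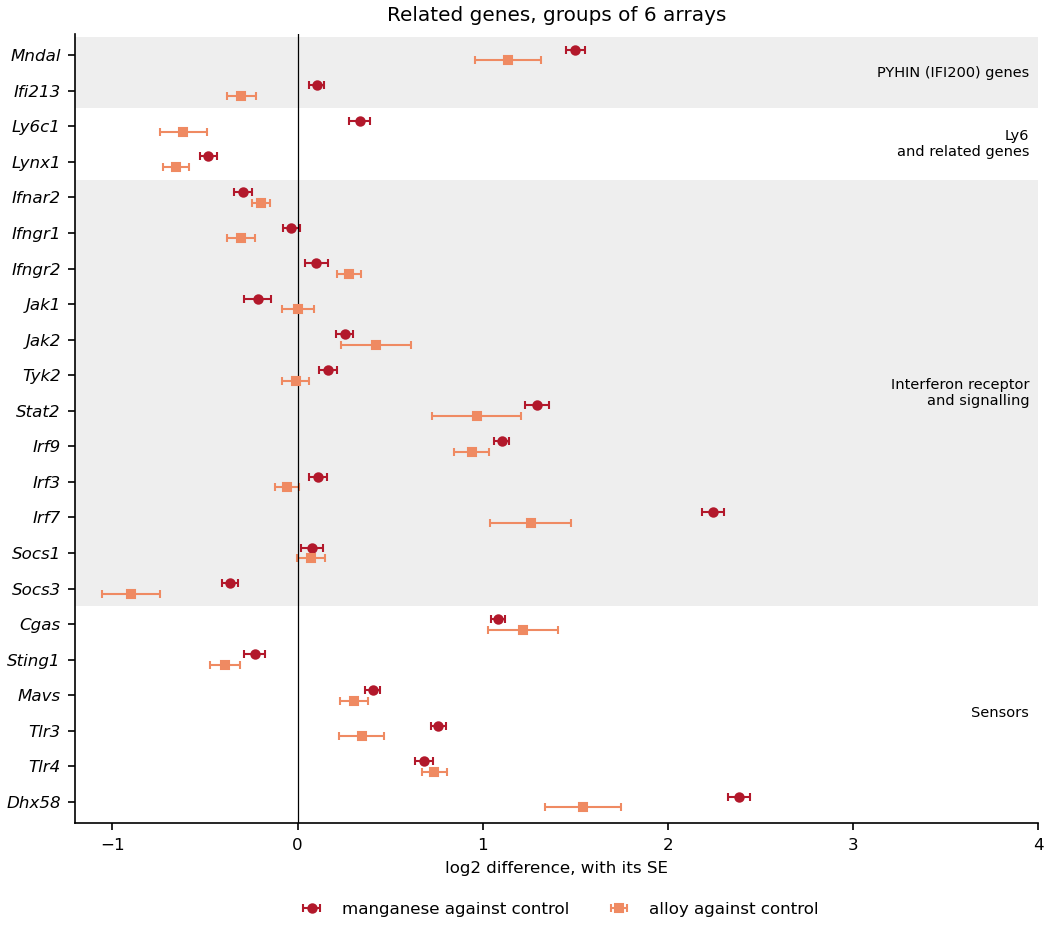
Log2 difference with its SE (x axis) for the tested genes of 4 related lists (y axis), except those below background on all arrays of a group, in manganese against control (circles) and alloy against control (squares), 6 against 6 arrays. Mndal, Irf7 and Dhx58 lie to the right of 0 in both, Socs3 and Sting1 to the left, and Ly6c1 and Ifi213 change side (0.33 and -0.62, 0.10 and -0.30).

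Genes were also ranked by the Pearson correlation of their levels with a member over the 24 arrays, which share 4 group means, so that the coefficients are descriptions. The genes most like Ifi207 were Rab3d, a vesicle-trafficking GTPase (r = 0.998), Nrap (0.996), Usp18 (0.994), Ddit3, a transcription factor of the stress response (0.992), and Lgals8 (0.992). Rab3d was higher by 2.85 with the alloy and 3.26 with manganese against control. Most like Ly6e were Shisa5 (0.981), Eif2ak2 (0.978), Irf7 (0.967), Oas2 (0.967) and Psmb10, an immunoproteasome subunit (0.964). Most like Ifi27 were Dad1, a subunit of the glycosylation complex (0.976), Tubb2b (0.965), Smim11 (0.955), the metallothionein Mt1 (0.948) and Ccng1 (0.944). Dad1 was lower by 0.47 with the alloy and 1.07 with manganese, and Mt1 by 0.39 and 0.83.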

How the data were processed

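Total RNA was amplified and hybridised to Illumina mouse bead arrays, 24 in all, 6 per group. The authors deposited 1 linear intensity per probe for 45281 probes, with no normalisation stated, per the file headers, and the mean intensity per gene symbol. They also deposited normalised log2 values per probe and per gene; lumi and RMA appear in the submitters' processing notes, their part not stated, and background handling is not given in the sources used here. Their normalised values begin near 8, so they compress low genes.

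Intensities were corrected with limma 3.58.1 (normexp, offset 50; R 4.3.3), quantile-normalised and put on the log2 scale. The tables used here hold no detection p-values, so background was set on each array at the upper 1% of a normal curve fitted to its intensities at and below their mode. Probes above it on at least 6 arrays were kept (19815), and 1 probe per gene, the one with the highest mean, was used (13151 genes, of which 2771 carry only the array's own symbol). Annotation gave 34885 probes 1 gene, 18 several and 10378 none. Each comparison was fitted with limma (lmFit, eBayes, two-sided) on its 6 + 6 arrays alone, because alloy arrays vary more, with Benjamini-Hochberg adjustment over all genes and a threshold of 0.05. The number of arrays limits the precision. Dim member probes were compared with exact permutation tests. The scripts were tested on simulated data. Named genes were all members, the 5 best correlated genes of Ifi207, Ly6e and Ifi27, tested genes of the related lists and the 5 interferon-stimulated genes with the smallest adjusted p per direction. Members and lists were chosen with earlier results of these data known. Alternatives covered scaling, background, filters, probe choice, the authors' tables, pooled spread, array weights, the replicate number as a block and omitted arrays.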

Additional observations from a re-analysis of the deposited data

Results flagged for a closer look

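Within the 32 groups of 6 values (8 genes in 4 groups), 3 had an end array far from the others by Dixon's criterion, which flags about 5% of groups by chance. Ifi205 on alloy replicate 3 was 7.20, against 6.56 on the nearest other alloy array. Only 3 of the 6 alloy arrays were above background for this gene. Ifi27l2a on iron replicate 4 was 11.38, against 11.86 on the nearest iron array, and iron minus control was 0.06 without it, against -0.04 with it. Ifi35 on control replicate 6 was 9.02, against 8.83 on the nearest control array, and alloy minus control was 1.16 without it, against 1.12 with it.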

How the results depend on the processing

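No called difference of a member changed sign under any of the alternatives run. The 8 members tested in the main setting were called in manganese against control and manganese against iron under each alternative that tested them (7 where Ifi205 was not tested, otherwise 8). With no filter Ifi204 and Ifi211 were tested as well, and neither was called in those comparisons. The count was 5 to 8 in alloy against control, 5 to 7 in alloy against iron and 2 to 7 in alloy against manganese. Manganese arrays chose Ifi207 and Ifi27, alloy arrays chose Ly6e, and Ifi205 passed the filter only through those groups. Nothing is therefore read from any of these member counts. For alloy against manganese, where 3 members were called, array weights gave 6 and leaving out alloy replicates 1, 3 and 4 gave 7. Those 3 arrays also had the highest interferon-list means of the alloy group, so the last value describes only the arrays that remain. The interferon-stimulated count there, 10, became 1 with median scaling, 1 with no normalisation, 21 with all 24 arrays in 1 fit, 42 with array weights, 47 without alloy replicates 1, 3 and 4, and 3 to 29 with 1 array left out. The share of all genes called there, 4.27%, became 0.243%, 0.129%, 15.4%, 12.4% and 10.7% under those settings, and 1.31% to 6.7% with 1 array left out (lowest without manganese replicate 4, highest without alloy replicate 5). For iron against control, 2.4% of genes became 1.06% with median scaling, 1.08% with no normalisation, 0.243% with all 24 arrays in 1 fit and 0.943% to 2.7% with 1 array left out (lowest without iron replicate 6). The 1 interferon-stimulated gene called there became 0 under those 3 settings, with an offset of 16, with no filter, with the mean of probes and with the authors' normalized gene table, and was 0 to 1 with 1 array left out. The cause of these changes was not tested.

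With the replicate number as a block, iron against control gave 3.63% of genes, alloy against manganese 2.67% of genes and 6 interferon-stimulated genes, and no other count moved by over 1.5 times. Same-numbered arrays correlated above 0.1 in 1 to 4 of 6 pairs per comparison, and at most 4 of 6 arrays correlated best with their own number, so the numbers were not taken as pairs.

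Without normalisation the median of all genes shifted by -0.13 in alloy against control and by -0.12 in alloy against iron. Scaling also moved the share of called genes that were higher: in alloy against control it was 28.5% with median scaling and 22.1% with no normalisation (main setting 47.4%), in alloy against iron 28% and 24% (47.1%), in alloy against manganese 18.8% and 5.88% (46.1%), and in iron against control 17.1% and 4.93% (32.7%). In manganese against control it was 38.3% with no normalisation (48.5%). Ly6e in alloy against control was 0.39 with median scaling, 0.34 with no normalisation and 0.31 with array weights (main setting 0.50). In the authors' normalized probe table, Ifi203 was 0.11 in alloy against control (main setting 0.79) and 0.15 in manganese against control (0.99), and Ifi35 was 0.59 (1.12) and 0.94 (1.64), with each still called. Signal near background limits Ifi203, Ifi204, Ifi205 and Ifi211.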
